A study of Mus musculus with 8 samples.

Results

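The slow fibre genes are 10 genes that encode the contractile and calcium-handling proteins typical of slow-twitch (type I) muscle fibres: Myh7, Tnni1, Tnnc1, Tnnt1, Myl2, Myl3, Atp2a2, Myoz2, Csrp3 and Tpm3. They were taken from a list of names, and each was matched to the array probes whose RefSeq accession belongs to it. All 10 were found, with 13 probes, among 20660 genes and 27235 probes that could be named. All 13 probes were well above background in both colours on all 8 arrays.

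RNA was compared between mice heterozygous for a loss of Eif6 (Eif6+/-) and wild-type (WT) mice in the gastrocnemius and in the tibialis anterior (TA), the first a calf muscle and the second a muscle at the front of the shin. The mice were 8 to 16 weeks old, and each mutant was paired at random with a WT mouse of matched age. Each of 8 Agilent arrays took 1 such pair, 4 arrays per muscle, with the Eif6+/- sample in Cy5 (red) and the WT sample in Cy3 (green). No pair was repeated with the dyes exchanged, so dye cannot be told apart from genotype within either muscle or where the muscles agree. The written methods name Cy3 labelling alone, while the sample labels and the array files hold both colours. All arrays lay on 1 slide, gastrocnemius in row 1 and TA in row 2, and the row cannot be told apart from the muscle. Each array had 62976 spots, of which 43.6 to 48.6% were well above background in Cy5 and 38.7 to 46% in Cy3, and 0 were saturated. The 5 genes taken as markers of skeletal muscle fibres (Acta1, Ckm, Des, Ttn and Ryr1) were well above background in both colours on every array.

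Skeletal muscle fibres are built from alternative sets of sarcomere proteins. Slow fibres use a slow-cycling myosin heavy chain with its light chains, slow isoforms of the troponin complex that makes the thin filament respond to calcium, and a calcium pump shared with the heart; they rely on oxidative metabolism and resist fatigue. Fast fibres, which make up most of the mouse gastrocnemius and TA, use other isoforms, and eIF6 itself is a factor that binds the large ribosomal subunit and keeps it from joining the small one.

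1 feature of the samples has to be known before the values. The Eif6+/- samples of pairs 1 and 4 were indistinguishable in both muscles. The standard deviation (SD) between their arrays, over the SD of repeat spots of 1 probe on an array, was 1.05 in gastrocnemius and 1.05 in TA, from 274 probes with repeat spots. For the other 5 combinations of Eif6+/- samples this ratio was 1.42 to 1.82 in gastrocnemius and 1.78 to 2.22 in TA. For the 6 combinations of WT samples it was 1.68 to 2.76 and 1.61 to 1.93. For the slow fibre genes, the median difference between the Eif6+/- samples of pairs 1 and 4 was 0.04 on the log2 scale in gastrocnemius, against 0.77 to 2.08 between other Eif6+/- samples. In TA it was 0.11, against 0.28 to 0.58 between other Eif6+/- samples and 0.16 to 0.96 between WT samples, a weaker separation. The study describes 4 mutant mice. Here these samples were counted as 1 Eif6+/- sample per muscle, measured against 2 WT mice, so each muscle had 3 Eif6+/- and 4 WT samples. Their ratios were averaged before any test, and results that differ when they are counted as separate samples are given below.

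**Figure D1:**
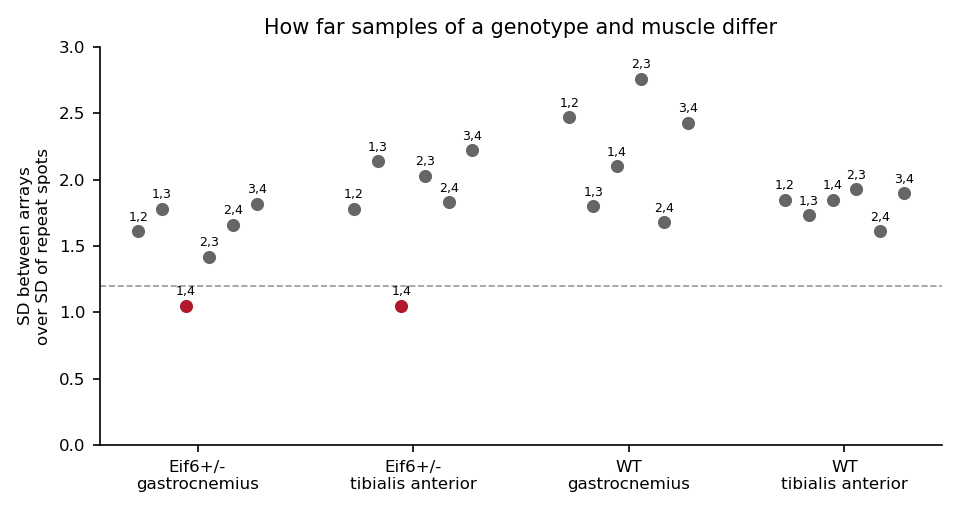
Each point is a combination of arrays, named by their pair numbers, within a genotype and muscle, and the vertical axis is the SD between the arrays over the SD of repeat spots (no unit). The red points, Eif6+/- samples of pairs 1 and 4, lie at 1.05 in both muscles, under the dashed line at 1.2 below which samples were counted as 1; all others lie between 1.42 and 2.76.

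Eif6, the targeted gene, was lower in every Eif6+/- sample. Its log2 ratio of Eif6+/- over WT was -0.97, -1.15, -0.89 and -1.06 in gastrocnemius pairs 1 to 4, and -1.22, -1.03, -0.95 and -0.80 in TA. The mean was -1.02 in gastrocnemius (standard error, SE, 0.0935; adjusted p = 0.0723) and -0.996 in TA (SE 0.0679; adjusted p = 0.031), where p is from limma, adjusted over all probes, and called under 0.1. A second probe gave -1.16 and -1.12. Eif6 RNA was thus about 1 log2 unit lower in all 8 pairs, with no overlap between the levels of the genotypes in either muscle.

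In gastrocnemius, the slow fibre genes varied more from pair to pair than most genes, and no direction was shared by all pairs. In pair 1 the Eif6+/- sample was far above its WT partner for 9 of 10 genes, with a median log2 ratio of 2.63. In pair 2 it was below its partner for 8 of 10, with a median of -1.16. The medians of pairs 3 and 4 were -0.21 and -0.08. None of the 10 genes passed limma's test of the genotype difference, with 1 under an unadjusted p of 0.05 and 0 by SAM, while 4.49% of the 12606 genes tested were called higher and 2.8% lower in Eif6+/-. Of these 12606 genes, 3237 were under an unadjusted p of 0.05 and 1541 were called by SAM.

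Myh7 encodes the slow myosin heavy chain, the motor protein that defines type I fibres. Its log2 ratio in gastrocnemius was 5.01 in pair 1, -1.81 in pair 2, -0.26 in pair 3 and -0.34 in pair 4. The log2 intensity of Myh7 in the Eif6+/- samples of pairs 1 to 4 was 14.67, 11.21, 12.57 and 14.63. In the WT samples it was 9.67, 13.03, 12.83 and 14.96. The lowest of all these samples was the WT sample of pair 1 and the highest the WT sample of pair 4, while pairs 1 and 4 held the same Eif6+/- level, so the range of the Eif6+/- samples lay within that of the WT samples. The mean log2 ratio was 0.09 (SE 0.666; adjusted p = 0.951).

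Promoter sequences of 5 slow fibre genes whose levels move together across samples are shown where each gene is described. Each is the 250 bases before the first listed start of the gene, from RefSeq on build GRCm38.p6, printed on the strand of the gene. Capitals mark 3 short motifs on either strand: CATTCC (the MCAT motif bound by TEAD factors; GGAATG on the other strand), CANNTG (the E-box bound by myogenic factors) and TATAAA (the TATA box). The Myh7 sequence is chr14:54994627-54994876 on the minus strand and holds 1 CATTCC motif, 201 bases before the start, and 1 E-box.
Myh7: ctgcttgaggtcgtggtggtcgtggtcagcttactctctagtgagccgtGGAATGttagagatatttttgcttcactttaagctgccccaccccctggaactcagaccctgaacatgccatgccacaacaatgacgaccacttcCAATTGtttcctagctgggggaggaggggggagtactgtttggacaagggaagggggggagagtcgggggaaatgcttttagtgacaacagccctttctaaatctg

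The 3 slow troponin genes encode the subunits that inhibit contraction (Tnni1), bind calcium (Tnnc1, shared with the heart) and bind tropomyosin (Tnnt1). Tnni1 had log2 ratios of 1.14, -1.72, -1.71 and -0.91 in gastrocnemius pairs 1 to 4. Tnnc1 had 1.97, -1.62, -0.57 and -0.75. Tnnt1 had 2.71, -1.28, -0.60 and -0.34. Each of the 3 was above its WT partner in pair 1 and below it in pairs 2, 3 and 4. The levels show where pair 1 parts from the others. For Tnnt1 the log2 intensity in the Eif6+/- samples was 14.44, 11.96, 12.81 and 14.43, and in the WT samples 11.73, 13.24, 13.41 and 14.77. For Tnni1 it was 10.02, 7.95, 8.77 and 10.12 in the Eif6+/- samples, and 8.87, 9.67, 10.48 and 11.03 in the WT samples. The WT sample of pair 1 was again the lowest WT sample of each gene and the Eif6+/- sample of pair 2 the lowest Eif6+/- sample, and the genotypes overlapped. The mean log2 ratio was -1.11 for Tnni1 (SE 0.345; adjusted p = 0.131), -0.53 for Tnnc1 (SE 0.362; adjusted p = 0.423) and -0.23 for Tnnt1 (SE 0.411; adjusted p = 0.766).

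The troponin promoters lie at chr1:135799171-135799420 on the plus strand (Tnni1, 4 E-boxes), chr14:31208062-31208311 on the plus strand (Tnnc1, 2 E-boxes and 1 CATTCC motif 58 bases before the start) and chr7:4515976-4516225 on the minus strand (Tnnt1, 1 E-box and 1 TATAAA motif 30 bases before the start).
Tnni1: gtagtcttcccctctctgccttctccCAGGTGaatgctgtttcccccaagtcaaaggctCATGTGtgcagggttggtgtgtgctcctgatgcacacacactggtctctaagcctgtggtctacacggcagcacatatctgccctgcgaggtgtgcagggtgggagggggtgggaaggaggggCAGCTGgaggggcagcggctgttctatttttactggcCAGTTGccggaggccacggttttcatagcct
Tnnc1: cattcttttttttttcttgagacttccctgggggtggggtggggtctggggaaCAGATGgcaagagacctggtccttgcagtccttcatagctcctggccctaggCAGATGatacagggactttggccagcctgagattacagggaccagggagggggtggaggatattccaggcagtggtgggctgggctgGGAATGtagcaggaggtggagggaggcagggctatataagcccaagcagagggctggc
Tnnt1: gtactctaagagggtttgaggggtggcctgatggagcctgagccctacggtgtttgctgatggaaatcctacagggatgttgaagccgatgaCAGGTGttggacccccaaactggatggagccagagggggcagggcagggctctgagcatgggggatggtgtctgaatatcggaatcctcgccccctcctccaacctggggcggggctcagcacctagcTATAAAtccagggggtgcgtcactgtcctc

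Myl2 and Myl3 encode the regulatory and the essential light chain that bind the neck of slow and ventricular myosin. Myl2 had log2 ratios of 3.53, -0.28, 0.54 and 0.01 in gastrocnemius, and Myl3 had 3.0, -1.29, 0.74 and -0.11. Both were highest in pair 1, and their other ratios lay on both sides of 0. The log2 intensity of Myl2 was 14.91, 13.28, 13.32 and 14.92 in the Eif6+/- samples and 11.39, 13.56, 12.78 and 14.92 in the WT samples. Only the WT sample of pair 1 lay outside the range of the Eif6+/- samples by more than 1 log2 unit. The mean was 0.68 for Myl2 (SE 0.335; adjusted p = 0.28) and 0.30 for Myl3 (SE 0.457; adjusted p = 0.73). The Myl2 sequence is chr5:122092474-122092723 on the plus strand, with 1 E-box 22 bases before the start.
Myl2: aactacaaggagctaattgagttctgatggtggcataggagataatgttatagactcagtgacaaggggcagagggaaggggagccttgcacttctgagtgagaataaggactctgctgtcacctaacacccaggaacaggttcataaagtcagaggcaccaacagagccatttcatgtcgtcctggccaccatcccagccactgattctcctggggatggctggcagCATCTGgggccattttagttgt

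The other slow fibre genes serve calcium uptake and the Z-disc. Atp2a2, the calcium pump SERCA2, had log2 ratios of 2.56, -1.03, -0.08 and 0.08 in gastrocnemius. Myoz2, a calcineurin-binding protein of the Z-disc, had 2.83, -0.51, 0.61 and 0.12. Csrp3, the muscle LIM protein, had 1.81, 0.29, -0.16 and -0.04. All 3 were highest in pair 1, and their means of 0.07, 0.52 and 0.34 had adjusted p-values of 0.933, 0.374 and 0.324. Tpm3, which encodes slow tropomyosin as well as forms made in many other cells, depended on the probe. Its brightest probe (A_55_P2090209) had log2 ratios of -0.23, 0.19, -0.60 and -0.01. Its other probes followed the slow fibre genes, with 3.72, -1.81, -0.36 and -0.61 for A_55_P2090205 and 3.18, -1.62, -0.37 and -0.69 for A_55_P2246235. The brightest probe varied little between samples, with log2 intensities from 11.25 to 12.03 over all gastrocnemius samples, whereas A_55_P2090205 ran from 8.06 in the WT sample of pair 1 to 12.49 in that of pair 4. Which Tpm3 transcripts each probe detects was not determined.

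**Figure D2:**
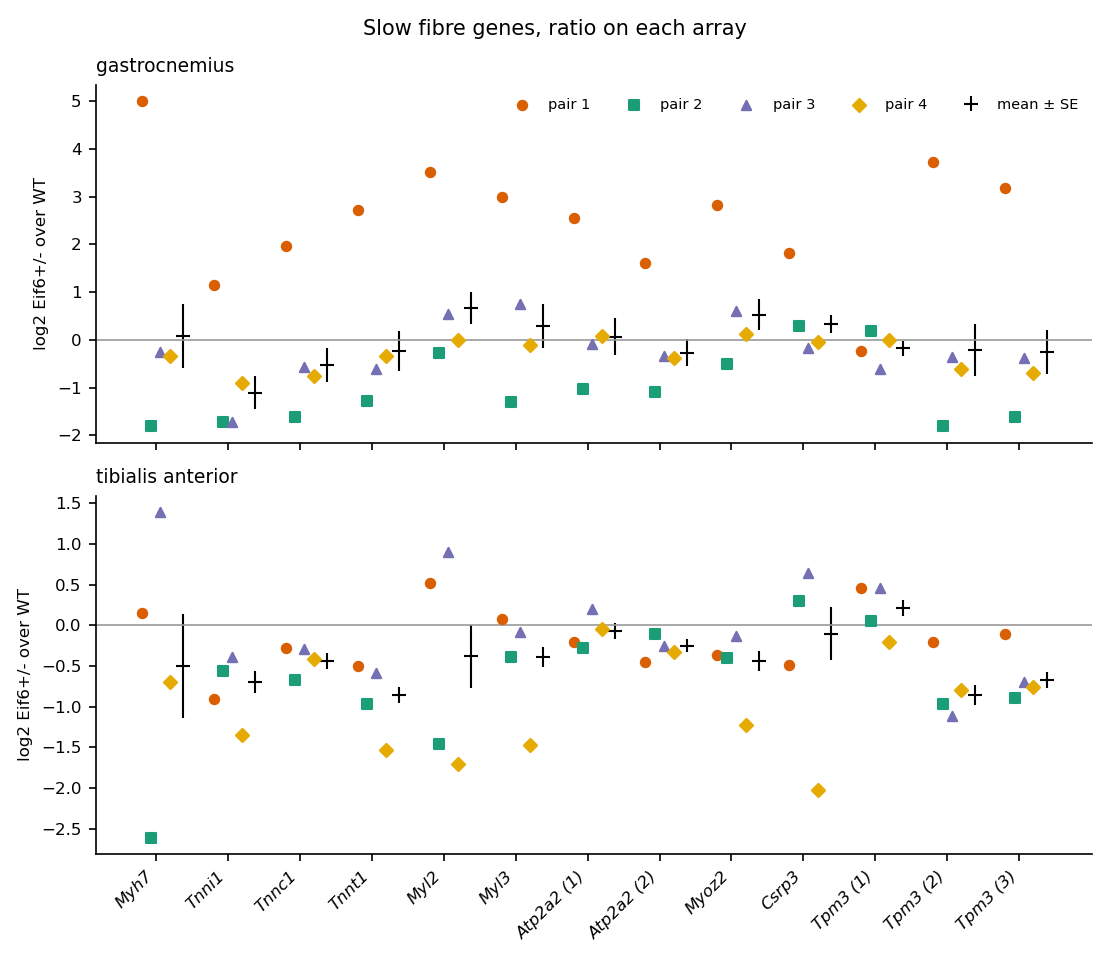
Each point is the log2 ratio of Eif6+/- over WT (vertical axis) of 1 probe on 1 array, with pairs told apart by colour and shape, and the black bar is the mean with its SE after the ratios of pairs 1 and 4 were averaged; genes with several probes are numbered by brightness. In gastrocnemius pair 1 stands above the other pairs for all probes but the brightest of Tpm3, up to 5.01 for Myh7, and in TA the 4 points of Tnni1, Tnnc1, Tnnt1 and Myoz2 all lie below 0.

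In gastrocnemius the median log2 ratio of the 10 genes (each by its brightest probe) was 0.08, against 0.02 over all genes. Their ratios spread widely. The SD of the log2 ratio, with pairs 1 and 4 averaged, had a median of 1.09, against 0.163 for all genes. The lowest SD of the 10 (0.398) was above the level that 90% of all genes stayed under (0.363). Genes of the related lists below also varied widely there, with an SD over the 4 ratios of up to 1.94 among the other slow or oxidative genes (Sln) and 1.84 among the developmental ones (Myh3). The outcome rested on single pairs. Without pair 1, 3 genes were called lower in Eif6+/-, Tnni1 (-1.45, adjusted p = 0.0334), Tnnc1 (-0.98, adjusted p = 0.045) and Tnnt1 (-0.74, adjusted p = 0.0612). In that setting 1774 of 12654 genes were called in all, against 919 of 12606 with all pairs. Without pair 2, 3 other genes were called higher, Myl2 (1.15, adjusted p = 0.0863), Myl3 (1.09, adjusted p = 0.0514) and Myoz2 (1.04, adjusted p = 0.0651). There 813 of 12733 genes were called in all. Over these and the other settings tried, the adjusted p of the 6 genes reached as high as 0.5, 0.975, 0.979, 0.755, 0.971 and 0.935 in that order. These p-values measure the spread between these samples only. By RNA of whole muscle alone, fewer slow fibres and less RNA per slow fibre cannot be told apart.

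The separate colours show which sample of a pair moved. The WT sample of gastrocnemius pair 1 was the lowest of the 4 WT samples for 9 of 10 genes, at a median of -1.65 on the log2 scale against the median of the other WT samples. The WT sample of pair 4 was the highest for 9 of 10, at a median of 1.5. Since both were hybridised against what was counted as 1 Eif6+/- sample, the gap between the ratios of pairs 1 and 4 lay in the WT samples. In pair 2 the Eif6+/- sample was the lowest of its genotype for 8 of 10 genes. With pairs 1 and 4 counted as 1 sample, it stood at a median of -1.41 against the median of the other 2 Eif6+/- samples, while its WT partner stood at -0.08. In pair 3 the Eif6+/- sample stood at -0.30 and the WT sample at 0.08, and the shared Eif6+/- sample stood at 1.65. The summed intensity of the 10 genes, in which Myl3 was brightest, was 148084, 37563, 54489 and 148243 in the Eif6+/- samples and 20026, 72192, 49458 and 166221 in the WT samples. The WT samples thus spanned the Eif6+/- samples from below and from above.

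**Figure D3:**
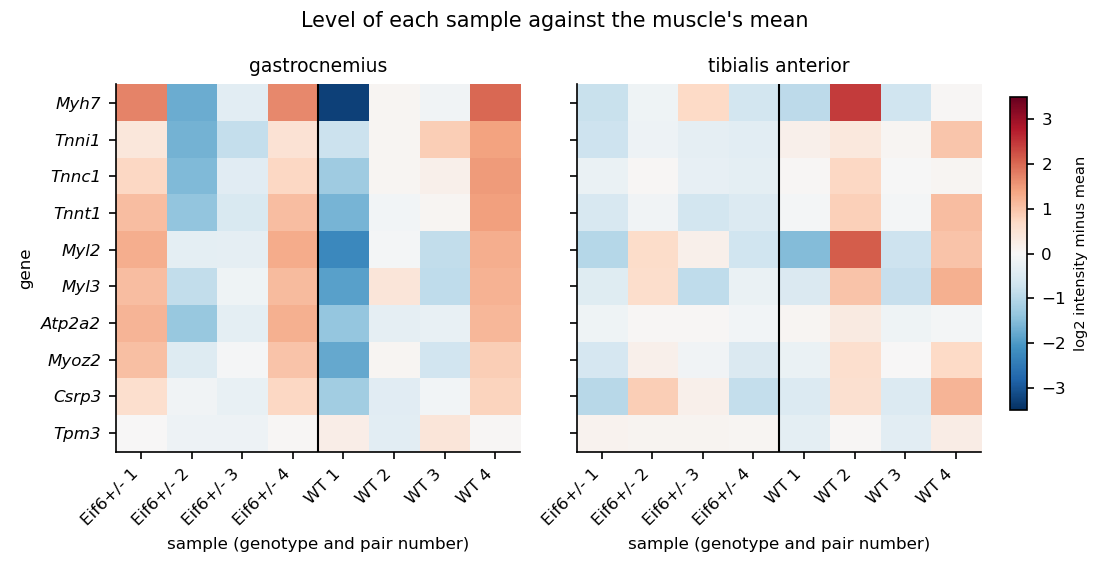
Each cell is the log2 intensity of a gene (rows, brightest probe) in a sample (columns, genotype and pair number) minus the mean of that gene over the 8 samples of the muscle, from blue (lower) to red (higher). In gastrocnemius the WT sample of pair 1 and the Eif6+/- sample of pair 2 are low for nearly the whole set, the WT sample of pair 4 and the Eif6+/- samples of pairs 1 and 4 are high, and Tpm3 is nearly flat.

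In TA, 4 of the 10 slow fibre genes were lower in Eif6+/-, Tnni1, Tnnc1, Tnnt1 and Myoz2, against 6% of the 12379 genes tested. None was called higher by limma, against 6.76% of all genes. Under an unadjusted p of 0.05 were 5 of the 10, and 3415 of all 12379 genes. The 3 slow troponin genes were lower by 0.44 to 0.86 on the log2 scale, each below its WT partner in all 4 pairs, but neither these calls nor that of Myoz2 held with Agilent processed signals. The 6 other genes had ratios on both sides of 0.

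Among the troponins, Tnnt1 had log2 ratios of -0.50, -0.96, -0.59 and -1.54 in TA pairs 1 to 4. Its log2 intensity was 9.90, 10.33, 9.81 and 9.99 in the Eif6+/- samples and 10.39, 11.30, 10.40 and 11.53 in the WT samples. Every Eif6+/- sample was below every WT sample, the nearest being the Eif6+/- sample of pair 2 and the WT sample of pair 1. The share of all genes with such a gap between the genotypes was not counted. The mean log2 ratio was -0.86 (SE 0.0999; adjusted p = 0.0338). Tnni1 had log2 ratios of -0.91, -0.56, -0.39 and -1.35. Its log2 intensity was 6.79, 7.33, 7.19 and 7.15 in the Eif6+/- samples and 7.71, 7.90, 7.58 and 8.50 in the WT samples, again with no overlap. The WT sample of pair 4 was the highest, and the mean was -0.69 (SE 0.14; adjusted p = 0.0536). Tnnc1 had log2 ratios of -0.28, -0.68, -0.29 and -0.41, from 6.87, 7.16, 6.81 and 6.77 in the Eif6+/- samples and 7.15, 7.84, 7.10 and 7.18 in the WT samples. Here the Eif6+/- sample of pair 2 reached the range of the WT samples, and the WT sample of pair 2 lay apart from the other 3. The mean was -0.44 (SE 0.0938; adjusted p = 0.0579).

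Among the motor proteins, Myh7 had log2 ratios of 0.15, -2.61, 1.40 and -0.70 in TA. Its log2 intensity was 7.60, 8.22, 9.08 and 7.73 in the Eif6+/- samples and 7.45, 10.83, 7.69 and 8.43 in the WT samples. The ratio of pair 2 came from a high WT sample and that of pair 3 from a high Eif6+/- sample. The mean was -0.50 (SE 0.641; adjusted p = 0.656). Myl2 had log2 ratios of 0.52, -1.46, 0.91 and -1.70, with a mean of -0.38 (adjusted p = 0.565). Myl3 had 0.08, -0.39, -0.08 and -1.47, with a mean of -0.39 (adjusted p = 0.109). For both light chains the ratio of pair 4 was the lowest of the 4.

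Of the other genes, Myoz2 had log2 ratios of -0.36, -0.40, -0.14 and -1.22 in TA, with a mean of -0.44 (SE 0.124; adjusted p = 0.0921). Its log2 intensity was 9.55, 10.33, 10.01 and 9.63 in the Eif6+/- samples and 9.91, 10.73, 10.15 and 10.85 in the WT samples, so that the genotypes overlapped although each pair differed in the same direction. Csrp3 ranged from -2.02 in pair 4 to 0.65 in pair 3 (mean -0.10; adjusted p = 0.868). Atp2a2 stayed between -0.28 and 0.20 (mean -0.07; adjusted p = 0.695), and its dimmer probe gave -0.25 (adjusted p = 0.121). The brightest Tpm3 probe had log2 ratios of 0.47, 0.05, 0.46 and -0.20 (mean 0.21; adjusted p = 0.213). The other Tpm3 probes went the other way, and both were called lower. A_55_P2090205 had -0.20, -0.96, -1.12 and -0.80 (mean -0.86; adjusted p = 0.0338), and A_55_P2246235 had -0.10, -0.90, -0.70 and -0.76 (mean -0.67; adjusted p = 0.0343). Tpm3 was counted by its brightest probe, so it is not among the 4 genes.

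In TA 4 of the 10 genes were below 0 on all 4 arrays, the same 4 that were called lower, as were 15.6% of all genes. The median log2 ratio of the 10 genes was -0.41, against 0.02 over all genes. The SD of the log2 ratio, with pairs 1 and 4 averaged, had a median of 0.32, against 0.124. The 4 calls were not kept in every setting, and at a threshold of 0.05 that of Tnnt1 alone was. Without pair 1, 0 of 10 genes were called by limma (5 under an unadjusted p of 0.05), with log2 ratios of -1.03 for Tnnt1, -0.77 for Tnni1, -0.46 for Tnnc1 and -0.58 for Myoz2; in that setting 68 of 12442 genes were called in all. Without pair 2, 2 genes were called, Tnni1 and Tnnt1, while Tnnc1 was at -0.32 and Myoz2 at -0.46. Without pair 3 there were 6, with Myl2 (-1.02) and Myl3 (-0.54) added. Without pair 4 there were 5, the added one being Tpm3, higher at 0.33 by its brightest probe. With pairs 2, 3 and 4 left out in turn, the genes called in all were 575 of 12548, 980 of 12398 and 2036 of 12540. Without the shared Eif6+/- sample of pairs 1 and 4, 0 genes were called by limma (4 under an unadjusted p of 0.05), with log2 ratios of -0.78 for Tnnt1, -0.48 for Tnni1, -0.48 for Tnnc1 and -0.27 for Myoz2; 2 arrays were left, and 4 of 12678 genes were called in all. With Agilent processed signals 0 were called by limma (3 under an unadjusted p of 0.05), at -0.928 for Tnnt1 (adjusted p = 0.102), -1.15 for Tnni1 (0.126), -0.735 for Tnnc1 (0.112) and -0.416 for Myoz2 (0.235), and 78 of 12379 genes were called in all. By SAM 0 of 10 were called, of 2 genes in all. Over all settings tried, the adjusted p ran from 0.0112 to 0.17 for Tnnt1, 0.0245 to 0.179 for Tnni1, 0.035 to 0.202 for Tnnc1 and 0.07 to 0.33 for Myoz2, and the log2 ratio of each stayed below 0 throughout.

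By sample, the WT samples of TA pairs 2 and 4 were high, with medians over the 10 genes of 0.79 and 0.77 against the median of the other WT samples, and those of pairs 1 and 3 were low, with -0.86 and -0.66. Measured likewise with pairs 1 and 4 counted as 1 sample, the Eif6+/- samples stood at -0.24 for the shared one, 0.40 for pair 2 and 0.05 for pair 3. In pair 4 all 10 genes had ratios below 0, with a median of -1.28. The summed intensity was 16273, 29674, 14739 and 18090 in the Eif6+/- samples and 15748, 40251, 14143 and 45062 in the WT samples, so that the WT samples of pairs 2 and 4 were above all Eif6+/- samples, that of pair 1 was among them and that of pair 3 below them.

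Cell type markers moved with genotype in TA as well. All 4 red blood cell genes were lower in Eif6+/-, Hbb-bs (-1.37), Hba-a1 (-0.78), Alas2 (-0.72) and Hbb-bt (-0.71), and Hba-a1 had the brightest probe. Their summed intensity was 17040, 10572, 14339 and 18194 in the Eif6+/- samples and 27811, 24442, 22398 and 23135 in the WT samples. Of 4 smooth muscle genes 3 were lower, Tagln (-0.63), Myh11 (-0.59) and Acta2 (-0.53); with Tagln the brightest, the list summed to 7177, 5742, 5705 and 6735 in the Eif6+/- samples and 11330, 8141, 9814 and 7505 in the WT samples. For both lists every Eif6+/- sample was below every WT sample. The nerve gene Prx was lower (-0.47), as were, of 4 leukocyte genes tested, 1, S100a9 (-1.58), and of 5 markers of the muscle fibre itself 3, Ckm (-0.48), Des (-0.47) and Ryr1 (-0.39). The leukocyte list, with Cd74 the brightest, summed to 1750, 1076, 1296 and 1763 in the Eif6+/- samples against 2299, 1954, 1935 and 2038 in the WT samples, and the fibre list, with Acta1 the brightest, to 375933, 366776, 367325 and 362261 against 452965, 455951, 442818 and 325175. None of the markers of fat cells (6), connective tissue (5), tendon (4) or endothelium (3) passed by limma, with 3, 0, 0 and 1 under an unadjusted p of 0.05. In the Eif6+/- sample of pair 3 the connective tissue genes summed to 170169, against 51525 to 74203 in the other Eif6+/- samples. Without pair 1, none of the red blood cell, smooth muscle, leukocyte and fibre genes was called, with 68 of 12442 genes called in all; the genes of these lists called with all pairs had ratios of -0.64 to -1.16 for red blood cells, -0.435 to -0.551 for smooth muscle, -1.22 for S100a9 and -0.28 to -0.37 for fibres. Without the shared Eif6+/- sample of pairs 1 and 4, 1 red blood cell gene was called and no smooth muscle, leukocyte or fibre gene, with 4 of 12678 genes called in all. Without pair 2, 4 fat cell genes and 1 connective tissue gene were called higher, and without pair 3, 2 connective tissue genes were called lower. In these settings 575 of 12548 and 980 of 12398 genes were called in all. The part of these marker genes in the lower slow troponin levels was not tested.

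In gastrocnemius the same lists gave fewer calls. Of 4 red blood cell genes Hbb-bs was lower (-0.74), of 2 leukocyte genes tested Cd74 (-1.23), and of 5 fibre markers Des (-0.79) and Ckm (-0.41). None of the fat cell, connective tissue, tendon, endothelium and smooth muscle genes passed by limma, with 2, 1, 0, 1 and 1 under an unadjusted p of 0.05. The fat cell genes, with Fabp4 the brightest, summed to 70266 in the WT sample of pair 4, the sample with the highest slow fibre levels, against 22097 to 36982 in the other WT samples. Without pair 1, 3 red blood cell and 3 fibre genes were called lower, and without pair 2, 2 fat cell and 2 leukocyte genes. In these settings 1774 of 12654 and 813 of 12733 genes were called in all. The part of fat cells in the slow fibre levels of the WT sample of pair 4 was not tested.

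A direct test of whether the genotype difference differed between the muscles found none. The difference of the mean log2 ratios, gastrocnemius minus TA, passed for 0 of 10 slow fibre genes by limma, with 1 (Myoz2) under an unadjusted p of 0.05. For all 12198 genes the shares were 0% by the adjusted and 6.2% by the unadjusted threshold. Myoz2 had mean log2 ratios of 0.52 in gastrocnemius and -0.44 in TA, a difference of 0.97 (SE 0.423; adjusted p = 0.772). Myl2 differed by 1.06 (SE 0.628; adjusted p = 0.772) and Tnnt1 by 0.62 (SE 0.518; adjusted p = 0.809). The calls in TA are therefore not shown to be absent from gastrocnemius.

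The slow fibre genes also differed between the muscles. In WT mice, 7 of 10 were higher in gastrocnemius than in TA, Myl2, Myh7, Tnnt1, Tnnc1, Tnni1, Atp2a2 and Csrp3, against 8.74% of the 11839 genes tested. In Eif6+/- mice 5 of 10 were higher, Myl2, Myh7, Tnnt1, Csrp3 and Myoz2, against 1.17% of 12606 genes. None was called lower by limma in either genotype, against 14.1% and 2% of all genes, and 7 and 8 of the 10 were under an unadjusted p of 0.05, all of them higher. Over all genes, 3792 of 11839 in WT and 2707 of 12606 in Eif6+/- were under that p, in either direction. Both sides of these comparisons carried the same dye.

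In WT mice Myl2 had log2 intensities of 11.39, 13.56, 12.78 and 14.92 in gastrocnemius and 6.84, 10.46, 7.62 and 9.34 in TA. The lowest gastrocnemius sample was above the highest TA sample, and the mean difference was 4.59 (SE 0.853; adjusted p = 0.0114). Myh7, with 9.67, 13.03, 12.83 and 14.96 against 7.45, 10.83, 7.69 and 8.43, differed by 4.02 (SE 1.03; adjusted p = 0.0346). Its groups overlapped, since the WT gastrocnemius sample of pair 1 was below the WT TA sample of pair 2. The slow troponins differed by 2.38 for Tnnt1 (adjusted p = 0.0217), 2.12 for Tnnc1 (adjusted p = 0.0181) and 2.09 for Tnni1 (adjusted p = 0.0126), with no overlap between the muscles in any of them. Atp2a2, with 8.67, 9.72, 9.77 and 11.20 against 8.15, 8.41, 7.95 and 8.03, differed by 1.71 (adjusted p = 0.0284) and did not overlap either. Csrp3 differed by 1.33 (adjusted p = 0.0832), with overlap. Myl3 (0.27, adjusted p = 0.828), Myoz2 (0.63, adjusted p = 0.407) and the brightest Tpm3 probe (0.38, adjusted p = 0.21) did not pass.

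In Eif6+/- mice Myl2 had 14.91, 13.28, 13.32 and 14.92 in gastrocnemius and 7.36, 9.01, 8.53 and 7.64 in TA, a mean difference of 5.49 (SE 0.493; adjusted p = 0.00742). Myh7, with 14.67, 11.21, 12.57 and 14.63 against 7.60, 8.22, 9.08 and 7.73, differed by 4.49 (SE 0.759; adjusted p = 0.0552). The muscles did not overlap for either gene. Tnnt1 differed by 3.04 (adjusted p = 0.0575), Csrp3 by 1.82 (adjusted p = 0.0943) and Myoz2 by 1.61 (adjusted p = 0.0876). With the pair number as a block, Csrp3 (1.82, adjusted p = 0.14) and Myoz2 (1.61, adjusted p = 0.134) were no longer called by limma. That fit called 146 of 12606 genes in all. Tnnc1 (1.99, adjusted p = 0.101), Atp2a2 (1.80, adjusted p = 0.136) and Tnni1 (1.76, adjusted p = 0.111) missed the threshold although each was higher in every gastrocnemius sample. Myl3 differed by 1.01 (adjusted p = 0.313) and the brightest Tpm3 probe by -0.01 (adjusted p = 0.948), with overlap.

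**Figure D4:**
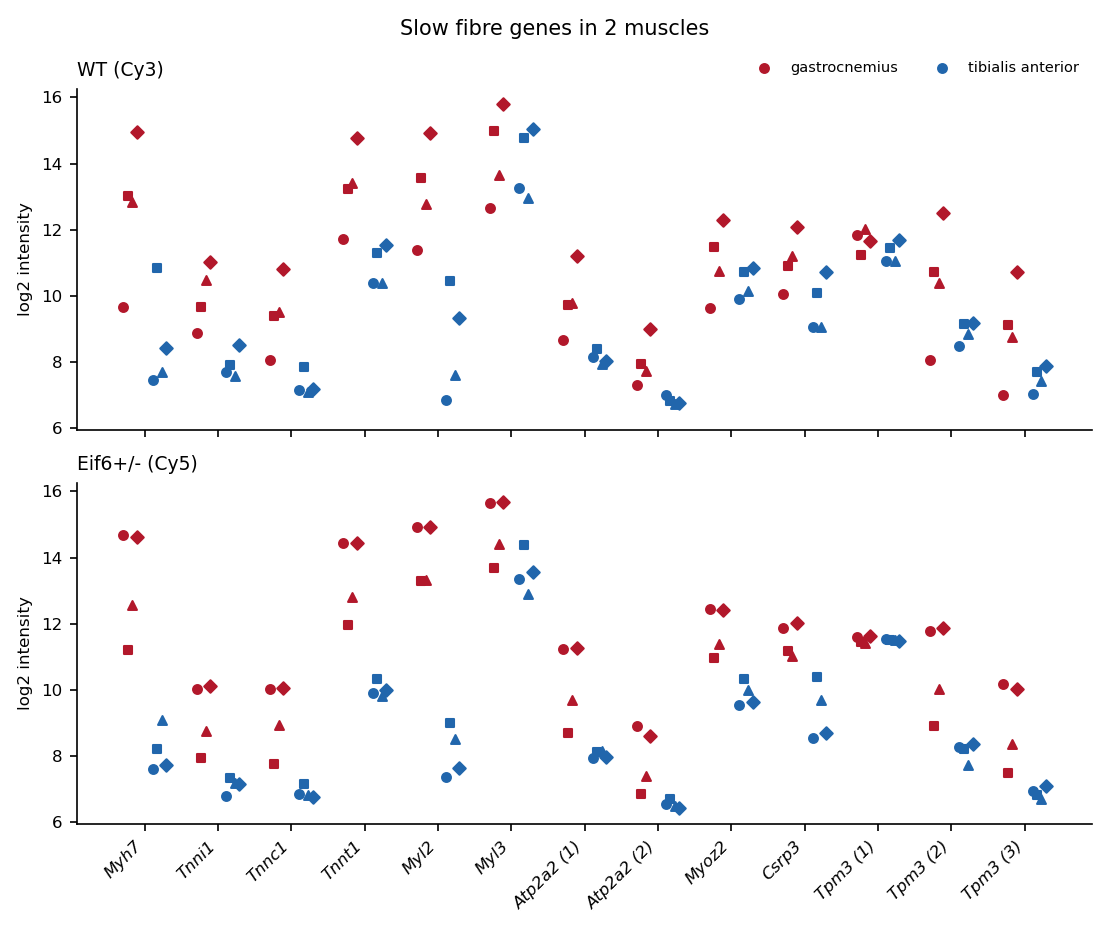
Each point is the log2 intensity (vertical axis) of a probe in a sample, red for gastrocnemius and blue for TA, with WT samples above, Eif6+/- samples below and a shape for each pair number; genes with several probes are numbered by brightness. The gap between red and blue is widest for Myl2 and Myh7, means of 13.16 and 12.62 against 8.57 and 8.60 in WT. For the brightest Tpm3 probe it is absent in Eif6+/-, where the means are 11.50 and 11.51, and small in WT, with 11.69 and 11.31.

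The WT muscles did not overlap for 5 of 10 (Tnni1, Tnnc1, Tnnt1, Myl2 and Atp2a2), against 7.88% of all genes with every gastrocnemius sample above every TA sample. The Eif6+/- muscles did not overlap for 8 of 10 (all but Myl3 and Tpm3), against 6.41% of all genes. The median difference of the 10 genes was 1.90 in WT and 1.81 in Eif6+/-, and over all genes -0.03 and -0.02. In WT, 6 genes (Myh7, Tnni1, Tnnc1, Tnnt1, Myl2 and Atp2a2) were called in all 17 settings tried. Csrp3 was called in 8 of them and lost without any 1 of 6 of the 8 samples, with differences of 0.996 to 1.46 there. Myoz2 (1.1) was added without the gastrocnemius sample of pair 1, and Tpm3 (0.52) without that of pair 2.

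The Eif6+/- counts were less firm. Only Myl2 was called without gastrocnemius pair 3, without TA pair 2 or without the TA sample shared by pairs 1 and 4. In that order 136 of 12704, 15 of 12681 and 84 of 12783 genes were called in all, against 399 of 12606 with all samples. In these settings Myh7 was at 4.61, 4.44 and 4.16 and Tnnt1 at 3.17, 3.19 and 2.99. Without TA pair 3 there were 3 genes, Csrp3 (1.89) and Myoz2 (1.63) being lost, and without TA pair 4 there were 7, with Tnni1 (1.82) and Tnnc1 (1.97) added. Here 452 of 12616 and 545 of 12694 genes were called in all. Without gastrocnemius pair 2 Csrp3 (1.93) and Myoz2 (1.93) were lost and Tnnc1 (2.56) was added, and Csrp3 alone was lost without TA pair 1 (1.80) or without the gastrocnemius sample shared by pairs 1 and 4 (1.54). For these settings, in order, the genes called in all were 19 of 12701, 224 of 12630 and 138 of 12774. When pairs 1 and 4 were counted as separate samples, 9 of 10 genes were called. Of all 12606 genes 2107 were called then, against 399 with these pairs counted as 1 sample.

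Markers of other tissues also differed between the WT muscles. Of 6 fat cell genes 5 were higher in gastrocnemius, led by Cfd (3.33) and Adipoq (2.87), with Cidec (2.38), Retn (2.29) and Plin1 (1.67). With Fabp4 the brightest, the list summed to 36982, 30910, 22097 and 70266 in gastrocnemius and 15071, 13662, 15191 and 16388 in TA. All 4 tendon genes were higher, Fmod (2.91), Tnmd (1.48), Thbs4 (1.09) and Scx (1.02); with Thbs4 the brightest they summed to 15649, 8308, 21826 and 14628 against 4147, 7330, 4159 and 6422. Of 5 connective tissue genes 4 were higher, Col1a2 (1.54), Col1a1 (1.35), Dcn (1.06) and Pdgfra (0.66); with Col1a2 the brightest they summed to 164744, 109746, 281887 and 130929 against 60260, 92096, 38272 and 84875. For each of these lists every gastrocnemius sample was above every TA sample. The nerve gene Pmp22 (0.73) and of 4 smooth muscle genes Acta2 (0.44) were higher. None of the red blood cell (4), leukocyte (3 tested), endothelium (3) and fibre genes (5) passed by limma, with 0, 2, 0 and 0 under an unadjusted p of 0.05. In Eif6+/- mice, Hbb-bs was higher (0.80) and Cdh5 lower (-0.52) in gastrocnemius, and none of the fat cell, connective tissue, tendon, smooth muscle, leukocyte and fibre genes passed, with 4, 2, 3, 3, 1 and 2 under an unadjusted p of 0.05. The part of these tissues in the muscle difference of the slow fibre genes was not tested.

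The fast counterparts of the slow fibre genes gave calls in both directions. Of 15 in gastrocnemius, 2 were higher in Eif6+/-, the fast myosin heavy chains Myh2 (1.40) and Myh1 (0.84), and 3 were lower, the fast calcium pump Atp2a1 (-0.87), calsequestrin Casq1 (-0.50) and Actn3 (-0.40), with a list median of -0.06. Myh2 had log2 ratios of 3.92, 0.53, 1.41 and 0.63 in pairs 1 to 4. It was thus above its WT partner in all 4 pairs and highest in pair 1, where the slow fibre genes were also highest. In TA 3 were higher, Myh4 (0.73), the gene of the fastest myosin, with Tnnc2 (0.50) and Tpm1 (0.42), and 2 were lower, Atp2a1 (-0.65) and Mylpf (-0.35). Tnnc2, the fast counterpart of Tnnc1, was at 0.93, 0.35, 0.36 and 0.65 in TA while Tnnc1 was below 0 in each pair. Of the counterparts of the other genes called lower in TA, Tnni2 (0.15), Tnnt3 (-0.09) and Myoz1 (-0.09) did not pass. The list median in TA was -0.05.

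Of 15 other slow or oxidative fibre genes, 3 were higher in gastrocnemius of Eif6+/- mice: slow myosin-binding protein Mybpc1 (1.11), the M-band protein Myom3 (0.87) and mitochondrial creatine kinase Ckmt2 (0.64). In TA 4 were lower: the slow myosin Myh7b (-0.73), the heart-type lactate dehydrogenase Ldhb (-0.73), myoglobin Mb (-0.51) and the slow calsequestrin Casq2 (-0.50). The medians were 0.28 in gastrocnemius and -0.19 in TA. Mybpc1 had log2 ratios of 2.18, 0.84, 0.95 and 0.90 in gastrocnemius and 0.14, 0.08, 0.10 and 0.03 in TA. Myh7b had 2.62, -1.41, -0.29 and -0.57 in gastrocnemius and -0.57, -0.99, -0.65 and -0.52 in TA. Myh7b thus had the signs of the slow troponins on all 8 arrays, and Mybpc1 was above 0 on all 8.

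**Figure D5:**
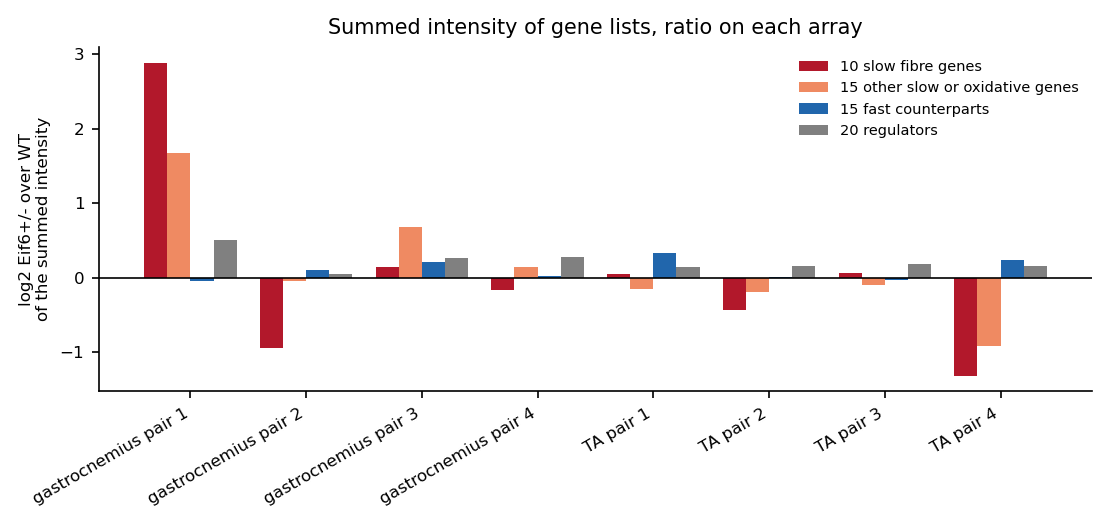
Bars give the log2 ratio of Eif6+/- over WT (vertical axis) of the summed intensity of 4 gene lists on each array (horizontal axis). The slow fibre genes span 2.89 in gastrocnemius pair 1 to -1.32 in TA pair 4, the other slow or oxidative genes follow at 1.68 and -0.92, and the fast counterparts stay between -0.05 and 0.33.

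Of 20 regulators of the slow programme, Eya1, a transcriptional coactivator, was higher in Eif6+/- in both muscles, by 0.52 in gastrocnemius and 0.58 in TA. Mef2d was lower in both (-0.50 and -0.35). In TA Mef2a (0.46) and the calcineurin subunit Ppp3r1 (0.26) were also higher. Eya1 had log2 ratios of 0.82, 0.39, 0.38 and 0.74 in gastrocnemius and 0.52, 0.41, 0.75 and 0.64 in TA, above 0 in all 8 pairs. All 8 carried Eif6+/- in Cy5, and pairs 1 and 4 shared what was counted as 1 Eif6+/- sample per muscle. The list medians were 0.11 and 0.00. Of 6 developmental or cardiac sarcomere genes tested, the probe named for the neonatal myosin Myh8 was higher in both muscles (0.52 and 0.80). No other passed, and the list medians were -0.59 and 0.03. Myh8 was the brightest gene of this list, whose sum ran from 158733 to 307757 over all samples. Its log2 ratios were 0.081, 0.599, 0.651 and 0.518 in gastrocnemius and 0.894, 0.398, 0.924 and 1.233 in TA. The fast myosin Myh4 had -0.147, 0.623, 0.541 and 0.407, then 0.92, 0.549, 0.646 and 1.096. Whether the Myh8 probe also detects Myh4 RNA was not tested, so a rise of Myh8 itself is not shown. In gastrocnemius no gene of any list passed without pair 3 or without pair 4, nor did any other gene of the arrays (0 of 12666 and 0 of 12811 by limma, 1700 and 2680 under an unadjusted p of 0.05), while SAM with all pairs called 1541 genes. Without pair 2, 8 other slow or oxidative genes and 4 regulators were called higher in gastrocnemius and 3 developmental genes lower. Without pair 1, 5 fast counterparts and 3 regulators were called higher there. In that order 813 of 12733 and 1774 of 12654 genes were called in all. In TA without pair 1, 1 fast counterpart, 1 other slow gene and 1 regulator were called. Without the shared Eif6+/- sample none of these lists had a call, and without pair 4, 4 fast counterparts and 6 other slow genes were called lower. In that order 68 of 12442, 4 of 12678 and 2036 of 12540 genes were called in all. No gene of these 4 lists passed the test of the difference between the muscles by limma, with 3, 5, 3 and 0 under an unadjusted p of 0.05, and no marker of the cell types that follow did, with 2, 3, 0, 0, 0, 0, 2 and 0 for fat cells, red blood cells, leukocytes, connective tissue, tendon, endothelium, smooth muscle and fibres.

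Between the WT muscles the related lists had calls in both directions. Of the other slow or oxidative genes Myom3 was higher in gastrocnemius (1.36), but Mb (-1.35), Mybpc1 (-1.35) and Ckmt2 (-0.96) were lower. Of the regulators Nfatc1 was higher (0.37) and 6 were lower, Vgll2 (-1.07), Esrrg (-0.66), Esrra (-0.45), Prdm1 (-0.38), Ppargc1a (-0.36) and Tbx15 (-0.30). Of the fast counterparts Mybpc2 was higher (0.51) and Myh1 lower (-1.44), and of the developmental or cardiac genes Myh6 was lower (-1.54). Single WT samples decided a few of these: without gastrocnemius pair 2, 3 other slow genes and 2 developmental genes were called higher, and without TA pair 3, 0 other slow genes were. In these settings 2756 of 11895 and 1704 of 11872 genes were called in all. In Eif6+/- mice Myh2 (1.85), Myom3 (2.29) and Pdlim1 (0.89) were higher in gastrocnemius and none was lower; none of the 20 regulators or 6 developmental genes passed by limma, with 4 and 0 under an unadjusted p of 0.05.

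The slow fibre genes moved together across arrays. As a description over the 8 arrays, which share the Eif6+/- sample of pairs 1 and 4 in each muscle and so are not independent, the Pearson r of a gene's log2 ratio with the mean of the other members was 0.979 for Tnnt1, 0.936 for Myl3, 0.934 for Myoz2, 0.93 for Atp2a2, 0.927 for Myl2, 0.91 for Myh7, 0.902 for Tnnc1 and 0.862 for Tnni1. Csrp3 was looser at 0.718, and the brightest Tpm3 probe was at -0.17, against 0.935 and 0.952 for the other Tpm3 probes. Gastrocnemius pair 1 lies far from the other arrays and weighs on all these values. The 8 genes outside the set most like its mean were Myl12a (0.976), Fxyd6 (0.965), Fhl1 (0.964), Oacyl (0.957), Idh2 (0.955), Rapgef1 (0.954), Akap7 (0.95) and Reep6 (0.949). Idh2, the mitochondrial isocitrate dehydrogenase, had log2 ratios of 2.57, -0.58, 0.72 and 0.52 in gastrocnemius and 0.45, -0.25, 0.12 and -0.48 in TA. Fhl1, a muscle LIM protein, had 1.97, -0.31, 0.04 and 0.24, then 0.12, 0.21, 0.76 and -0.65. Both were high in gastrocnemius pair 1, and neither passed the genotype test in either muscle.

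The promoters shared 1 of the 5 motifs searched. RefSeq promoter sequences were matched for 9 of the 10 genes, Atp2a2 being named only, with 14 starts in all. An E-box (CANNTG) was in the 250 bases before all 14 starts, and in 66.2% of the 32841 starts of all genes. CATTCC was in 3 of 14, at Myh7, Tnnc1 and Myl3, and in 12.6% of all. TATAAA was in 2 of 14, at Tnnt1 and a second start of Myl2, and in 12.4% of all. AGGTCA, a core motif of nuclear receptors, was in 2 of 14, at Tpm3 and the second start of Myl2, and in 14% of all. The MEF2 motif was in 1 of 14, at Myoz2, and in 2.92% of all. All motifs were searched on both strands, and matches may overlap. The genes that were lower in TA, Tnni1, Tnnc1, Tnnt1 and Myoz2, thus have E-boxes before their starts, as do the other 5 matched genes, and no other searched motif in common.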

How the data were processed

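Gene expression was measured on 8 Agilent arrays scanned in Cy5 (Eif6+/-) and Cy3 (WT), 1 pair of samples per array, and pairs are numbered as in the sample labels. Per the file headers, the deposited scanner files hold median spot and background intensities, uncorrected, and intensities that the scanner software background-subtracted and dye-normalized. Per the file headers, they also hold log10 ratios of Cy5 over Cy3 made from the processed signals by that software. The deposited table of log2 ratios was made by the authors, and it matched loess within each array on uncorrected intensities, Cy5 over Cy3 (r from 0.999961 to 0.999996). The column medians of that log2 table by the authors were 0.00257, 0.000831, -0.00441 and 0.00375 for gastrocnemius and 0.00138, -0.000366, 0.00288 and 0.00212 for TA pairs 1 to 4, so it is centred at 0.

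Median spot intensity was used, since no mean signal column was analysed. Control, non-uniform and outlier spots were left out. With limma 3.58.1 in R 4.3.3, background was corrected by normexp (offset 50), ratios were normalized by loess within arrays and by quantiles over the 16 channels, and spots of a probe were averaged. For a genotype comparison a probe had to be well above background, in Cy5 or in Cy3, on each of the muscle's 4 arrays, and for a comparison of muscles, in the channel compared, on all 4 arrays of at least 1 muscle; probes lacking a value on any array of a fit were left out. Of 55681 probes 28685 had a RefSeq accession and 27235 were named (20660 genes). A gene was given by its kept probe of highest mean signal. limma (lmFit, eBayes) tested ratios against 0, their difference between muscles, and single channels between muscles, with Benjamini-Hochberg adjustment over all kept probes and a threshold of 0.1. The design of 4 independent arrays per muscle was changed after the data were seen: Eif6+/- samples of pairs 1 and 4 were counted as 1, because the SD between them was under 1.2 times that of repeat spots, and their ratios (or Cy5 values) were averaged. Tests on simulated data were run with both kinds of fit. Their noise had the same size for all probes, so they do not cover genes that vary as widely as the slow fibre genes.

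The named genes are the 10 members, Eif6, the called genes of each list (up to 6, else the 3 largest increases and decreases) and the 8 genes most correlated with the members' mean. The lists were fast counterparts, other slow or oxidative fibre genes, regulators of the slow programme, developmental or cardiac sarcomere genes, and markers of fat cells, red blood cells, leukocytes, connective tissue, tendon, nerve, endothelium, smooth muscle and skeletal muscle fibres. Some results of the nerve list are not reported here. Members and lists were chosen with earlier results of these data known. Alternatives were other background corrections, normalizations, starting signals, filters, probe choices, thresholds, SAM, leaving out each array, the pair number as a block, and, added after seeing the data, pairs 1 and 4 as separate samples and both left out. Promoters are RefSeq sequences on GRCm38.p6, and figures were drawn with matplotlib 3.10.9. The number of arrays limits the precision.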

Additional observations from a re-analysis of the deposited data

Results flagged for a closer look

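The WT sample of TA pair 2 stood apart for Tnnc1, with a log2 intensity of 7.84 against 7.10 to 7.18 in the other 3 WT samples. Its gap to the nearest sample was 0.901 of the range of the 4 samples, above Dixon's critical value for 4 samples. This was the only one of 22 sets of 4 WT samples in which a sample stood apart in this way, and chance gives about 1 in 20. Without TA pair 2, Tnnc1 was at -0.32 and was no longer called. The cause was not tested.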

How the results depend on the processing

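The number of slow fibre genes called in gastrocnemius was 0 in each setting that kept all arrays, and 0 to 3 over the settings that left out a replicate or the shared Eif6+/- sample. Of all genes there, 919 of 12606 were called, but 0 of 12606 at a threshold of 0.05. By the median of a gene's probes 0 of 12604 were called, and with pairs 1 and 4 as separate samples 1945 of 12606. In TA the number of slow fibre genes called was 4, with 3 to 5 under most settings, but 1 at a threshold of 0.05, 2 with normexp offset 0, 0 with Agilent processed signals, 0 with SAM, and 0 to 6 over the settings that left out samples. Tnni1, Tnnc1, Tnnt1 and Myoz2 were below 0 in TA in every setting. For the muscles in WT the count was 6 to 8 throughout. In Eif6+/- it was 5, and 1 at a threshold of 0.05, 3 with normexp offset 0, 3 with loess alone, 1 with Agilent processed signals, 3 with no filter on dim probes, 9 with pairs 1 and 4 as separate samples and 1 to 7 over the settings that left out samples. The difference between the muscles in the genotype effect had 0 calls in all 21 alternatives. The cause was not tested.

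The pair number as a block across muscles gave 0 genes for that difference, 7 for WT and 3 for Eif6+/-. Across the muscles, the correlations of samples with the same pair number, as deviations from the muscle mean, were -0.14, 0.02, -0.36 and 0.09 in the ratios of pairs 1 to 4, 0.19, 0.02, 0.02 and 0.15 in Eif6+/- and -0.38, 0.11, -0.07 and 0.19 in WT, over genes, which are not independent. The TA sample most like a gastrocnemius sample had the same number for pairs 1 and 4 in Eif6+/- and pair 4 in WT, and for no pair in the ratios. Whether a number marks the same mouse in both muscles was not tested.

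Signs turned for some genes, not only for values near 0. By the median of a gene's probes, Atp2a2 was at -0.0981 in gastrocnemius, and Tpm3 at -0.675 in TA (adjusted p 0.0534, a call by limma), 0.439 for the difference and 2.1 for the Eif6+/- muscles, since its dimmer probes outnumber the brightest. With pairs 1 and 4 as separate samples, Tnnt1 was at 0.121 in gastrocnemius, Tnni1 at 0.00361 and Tnnc1 at 0.172 for the difference, and Tpm3 at 0.0201 for the Eif6+/- muscles. Tnnc1 was at 0.0848 for the difference with normexp offset 0 and at 0.242 with Agilent processed signals, with which Tpm3 was at 0.0387 for the Eif6+/- muscles. Leaving out samples gave these ranges in gastrocnemius: Myh7 -1.03 to 1.04, Tnnc1 -1.09 to 0.021, Tnnt1 -0.944 to 0.291, Myl3 -0.276 to 1.09, Atp2a2 -0.553 to 0.619 and Tpm3 -0.36 to 0.0355. In TA they were -1.44 to 0.56 for Myh7, -1.02 to 0.159 for Myl2, -0.203 to 0.0368 for Atp2a2 and -0.48 to 0.472 for Csrp3. For the difference they were -0.538 to 1.54 for Myh7, -0.657 to 0.458 for Tnnc1, -0.087 to 1.15 for Tnnt1, -0.483 to 0.689 for Atp2a2 and -0.136 to 0.816 for Csrp3. For the muscles they were -0.239 to 0.805 for Myl3 in WT and -0.0773 to 0.0227 for Tpm3 in Eif6+/-. Of the values of single genes under the alternatives, 142 of 160 kept direction and side of the threshold in gastrocnemius, 123 of 160 in TA, 196 of 210 for the difference, 157 of 170 for WT and 152 of 200 for Eif6+/-. All members were well above background on every array, but sizes in TA depended on the starting signals: Tnni1 was at -0.695, -0.963 with normexp offset 0 and -1.15 with Agilent processed signals, which differ in background and dye normalization, and Tnnc1 at -0.437 and, with the latter, -0.735.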
